A study of Mus musculus with 2 samples.

Results

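Peptidergic A-fibre nociceptors are lightly myelinated sensory neurons of the dorsal root ganglion that carry fast, sharp pain. They combine features that other ganglion neurons keep apart: the peptide CGRP (gene Calca) and the pain-related sodium channel Nav1.8 (Scn10a), as in unmyelinated pain fibres, and the heavy neurofilament subunit of large myelinated axons (Nefh). In mouse they have been divided by the genes Smr2 and Bmpr1b.

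The neurons were taken from 2 libraries of cervical dorsal root ganglia, 1 library per group. The control was Foxp3 CreER; Penk fl/WT, and the other library, called Treg_Penk_KO here, was Foxp3 CreER; Penk fl/fl. Both groups carried the tamoxifen-inducible recombinase driven by Foxp3, a gene of regulatory T cells, and at least 1 floxed allele of Penk, the enkephalin precursor. All mice had been given tamoxifen and 3 days of imiquimod, a skin irritant. The controls were littermates, so they also carried the recombinase and a floxed allele. No untreated ganglia were part of the comparison. Ganglia of both sides from levels C2 to C7 were pooled, and neither the number of mice nor their age is given in the sources used here. Because each group was 1 pool, no test between genotypes was possible, and each interval below is an exact 95% interval that covers counting error only.

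A barcode, the tag of a droplet that ideally held 1 cell, was counted as a member if it had at least 5000 unique molecular identifiers (UMIs, counted RNA molecules) and a fixed combination of levels. Per 10,000 of its own UMIs, a member had Calca at 5 or more, Nefh at 5 or more and Scn10a at 2 or more. It also had Adcyap1 below 1, Mrgprd and Trpm8 each below 3, and Pvalb, Th, Mrgprb4 and the sum of Nppb and Il31ra each below 5, which leaves out other neuron types. These conditions held for 922 of 27777 barcodes, namely 602 of 15710 in the control library and 320 of 12067 in the Treg_Penk_KO library. Members are cells of 2 pools and are not replicates of a condition. Because measured levels chose them, the levels of the 11 genes of the rule are a description of the gate and no finding.

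The Adcyap1 condition, which removes barcodes with the peptide PACAP, was the most selective of the exclusions. Calca, Nefh and Scn10a alone admitted 981 control and 658 Treg_Penk_KO barcodes, and of those that met every other condition Adcyap1 removed 207 and 149. The boundary was not an empty zone. The lowest Calca inside the gate was 5.00 per 10,000 UMIs for the control and 5.05 for the other library, and the nearest values outside were 4.99 in both. The highest Adcyap1 inside was 0.985 and 0.995, and the nearest outside was 1.00 in both.

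Members were deep barcodes. Control members had a median depth of 17301 UMIs, between 5028 and 300630. Those of the other library had 17592 UMIs, between 5058 and 338735. Summed over members, the control held 28492201 UMIs and the Treg_Penk_KO library 14194387. The assay reads genes with pairs of probes on fixed tissue, and an 8-base probe barcode marks the library after a 16-base droplet barcode, so a droplet of both libraries can be recognised. Of all barcodes, 4723 droplet barcodes occurred in both libraries, and 262 of the control members (43.5%) and 140 of the Treg_Penk_KO members (43.8%) lay in such droplets. In 5 droplets both libraries had a member. The pair below shows 1 of these, with the droplet barcode in lower case and the probe barcode in capitals, which held 40107 UMIs (control) and 78327 UMIs (Treg_Penk_KO).
control: acagcaccacctatcgAGTAGGCT
Treg_Penk_KO: acagcaccacctatcgATGTTGAC
Such droplets held RNA of both pools, whereas a second cell of the same pool in a droplet would not be seen in this way. Doublets were not removed, and the abundance and Apoe results are given below also for droplets of 1 library alone.

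The label was checked against the marker genes that the rule did not use. Smr2, which encodes a submaxillary gland protein and marks a subset of these neurons (mouse chromosome 5, chr5:88234415-88256912 on the plus strand of GRCm39), was at 22.9 counts per 1000000 UMIs of all members (CPM; interval 21.2 to 24.8) in control members and at 23.0 (20.6 to 25.7) in Treg_Penk_KO members. Bmpr1b, a receptor for bone morphogenetic proteins (chr3:141542897-141875323, minus strand), was at 18.4 CPM (16.9 to 20.0) and 20.4 CPM (18.2 to 22.9). Smr2 reached at most 2.44 CPM in 3 comparison gates at the same minimum depth, and Bmpr1b at most 1.39 CPM. The comparison gates were peptidergic neurons with low Nefh (below 2 per 10,000; 175 and 155 barcodes in the control and Treg_Penk_KO libraries), proprioceptors with Pvalb (733 and 462) and other myelinated neurons (1115 and 732). They were also defined by the genes of the rule, so differences between gates are descriptions. The low-Nefh gate had no limit on Adcyap1, so it differed from members in the Adcyap1 condition as well as in Nefh.

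Both markers were sparse at the level of single barcodes. After each barcode was thinned at random to 5000 UMIs, Smr2 had a UMI in 8.31% (6.23 to 10.8) of control and 8.12% (5.38 to 11.7) of Treg_Penk_KO members. The share was 0.14% and 0% in the proprioceptor gate, where 0 of 462 barcodes allows a share of up to 0.649% at 3 counts of the total. It was 1.71% and 0.645% in the low-Nefh gate and 0.897% and 0.546% in other myelinated neurons. Without thinning, the shares were 25.6% and 20.6% of members at median depths of 17301 and 17592 UMIs, against 1.09% and 0.87% of proprioceptors at 23170 and 15589 UMIs. The thinned shares for Bmpr1b were 6.48% and 7.19% of members.

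S100b, a calcium-binding protein of large myelinated neurons, was at 799 CPM in control and 792 CPM in Treg_Penk_KO members, against 30.5 and 29.4 CPM in the low-Nefh gate. Genes of unmyelinated peptidergic neurons were low in members. Trpv1, the heat and capsaicin channel, was at 32.9 and 57.1 CPM against 433 and 418 CPM in the low-Nefh gate. Gfra3, the artemin receptor, was at 41.6 and 47.9 CPM against 683 and 570 CPM. Tac1, the substance P precursor, was at 101 and 182 CPM against 1170 and 1241 CPM. These levels go with the label of a myelinated peptidergic nociceptor in both libraries. Barcodes with Adcyap1 were removed from members and not from the low-Nefh gate, and the part of that condition in these contrasts was not tested. Glial RNA in members is described below, and its part in the S100b contrast was not tested.

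Genes with at least 20 CPM in members of 1 library and 100 UMIs over members of both are here called eligible genes. Across these, members differed most often from proprioceptors. Of 7556 eligible genes, 814 (10.8%) were at least 2-fold higher in members than in proprioceptors in both libraries, 528 (6.99%) than in the low-Nefh gate and 323 (4.27%) than in other myelinated neurons. A level at most 0.5 times that of the same gates was found for 346 genes (4.58%), 224 (2.96%) and 171 (2.26%). Eligibility was judged in members alone, so genes low in members but high in a comparison gate were left out. The counts of higher and lower genes can therefore not be set against each other.

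The genes that stood highest over all 3 comparison gates included receptors and calcium-linked proteins. Chp2, a calcineurin-like calcium-binding protein (chr7:121807809-121823871, plus strand), was at 219 CPM (214 to 225) in control and 245 CPM (237 to 253) in Treg_Penk_KO members. It was at most 12.3 CPM in any comparison gate, so the level in members was at least 17.8-fold the highest of them in both libraries. After thinning to 5000 UMIs, 52.3% of control members had a Chp2 UMI, against 3.43% of low-Nefh peptidergic, 5.05% of proprioceptor and 10.8% of other myelinated barcodes.

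Transmitter and prostaglandin receptors were among the same leading genes. Chrna7, the alpha7 nicotinic acetylcholine receptor subunit (chr7:62731494-62862322, minus strand), was at 282 and 291 CPM in members and at most 28.7 CPM elsewhere. Ptger3, the EP3 receptor for prostaglandin E2, was at 167 and 159.6 CPM and at most 19.6 CPM elsewhere. Htr3a, a subunit of the serotonin-gated channel (chr9:48810512-48822686, minus strand), was at 779.8 and 776 CPM, against 139.7 CPM in the highest comparison gate. All 3 receptor genes had member levels at least 5.58-fold those of any comparison gate in both libraries.

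The other genes among the 15 leading ones included signalling and release genes. Ngef, a guanine exchange factor, was at 52.2 and 58.9 CPM, 11.9-fold and 14.9-fold the highest comparison gate. Cplx2, a complexin of synaptic vesicle fusion, was at 282 and 265 CPM, and Abcg2, an efflux transporter, at 383 and 372 CPM. Ptk2b, a calcium-sensitive tyrosine kinase, was at 196 and 192 CPM. Creg2, Gng8, Calml4, Syt6, Disp3, Hgf and Tafa1 completed the list, with member levels from 3.11-fold upward over the highest comparison gate. Their ratios of Treg_Penk_KO to control lay between 0.876 (Calml4) and 1.15 (Disp3).

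**Figure D1:**
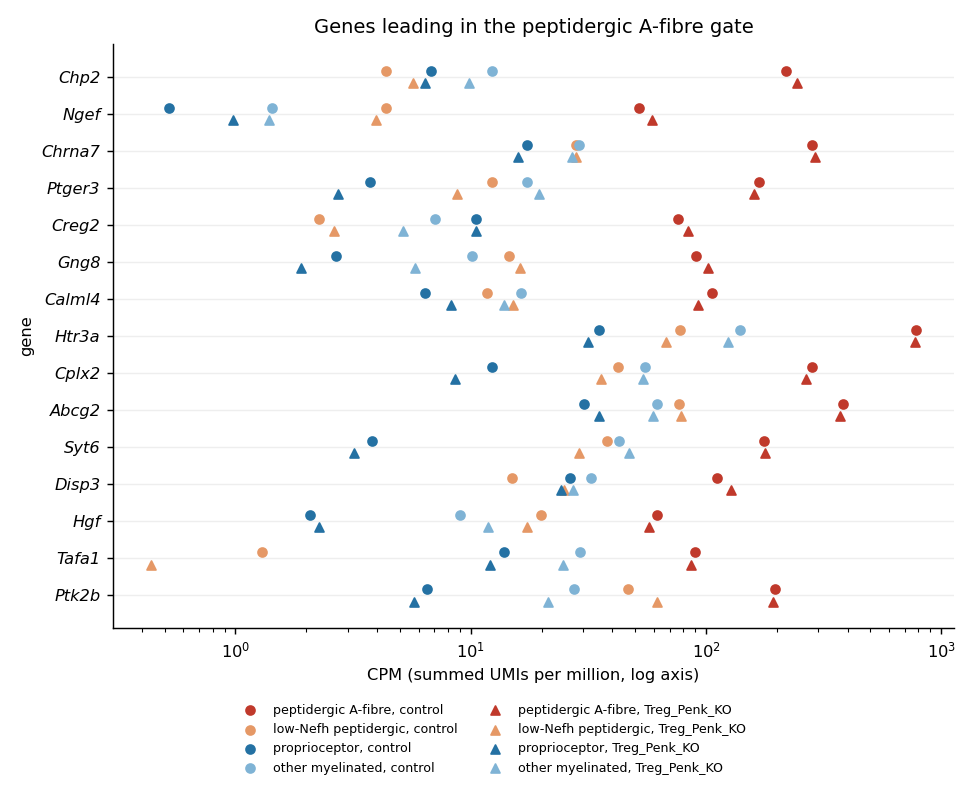
Summed levels of the 15 leading genes (x axis, CPM on a log scale; y axis, genes) in members and in 3 comparison gates, with circles for the control and triangles for the Treg_Penk_KO library. For every gene both red points, the members, lie to the right of all other points, and for Chp2 the members are at 219 and 245 CPM against at most 12.3 CPM.

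Single members varied in these genes. The median level of Htr3a was 5.82 per 10,000 UMIs in control members, with the central 80% of members between 0.16 and 16.7, and 4.00 in Treg_Penk_KO members, between 0 and 15.6. Chrna7 had a median of 1.82 in control members and 1.33 in Treg_Penk_KO members, and 81.1% and 79.1% of members had a Chrna7 UMI. Nefl, the light neurofilament subunit, varied less, with medians of 44.8 and 48.9 and the central 80% between 25.2 and 70.2 in the control and between 24.4 and 79.8 in the Treg_Penk_KO library. The level of Oprm1, the mu opioid receptor on which enkephalins act, had medians of 3.71 and 4.36, and 94.0% and 95.3% of members had an Oprm1 UMI.

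**Figure D2:**
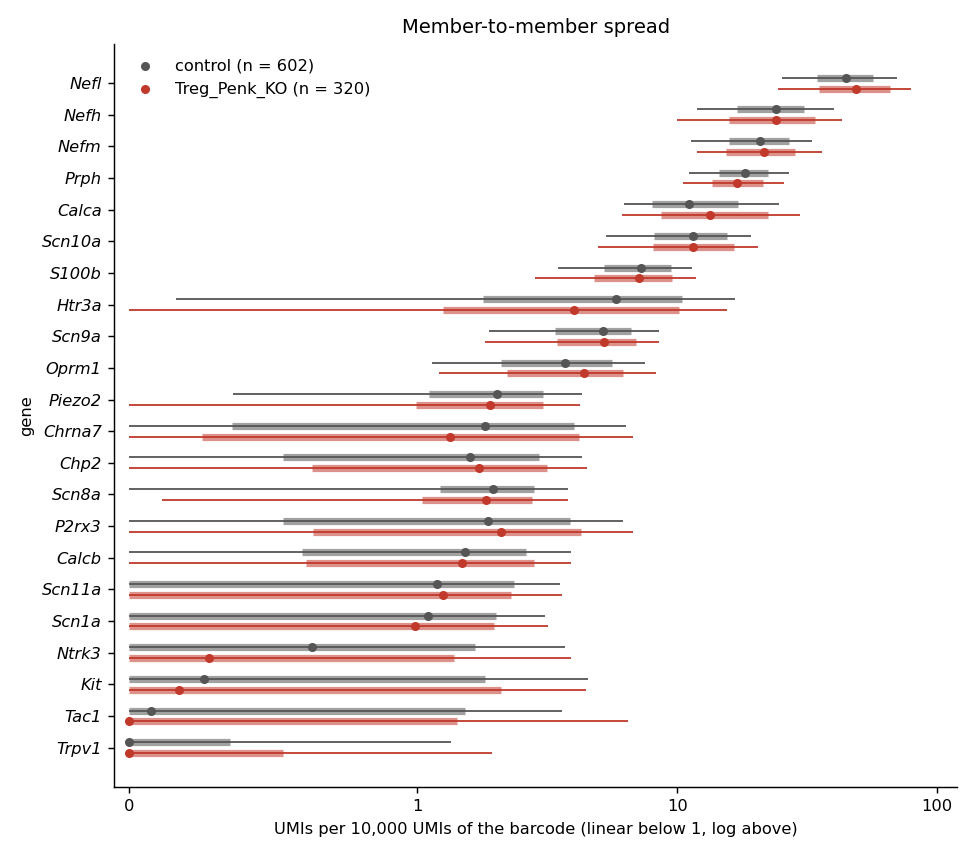
Spread of 22 genes among members (x axis, UMIs per 10,000 UMIs of the barcode, linear below 1 and log above; y axis, genes), with dots for medians, thick bars for the central 50% and thin lines for the central 80% of members. Nefl, Nefh and Calca were found in all members, whereas Kit, Tac1 and Trpv1 had medians at or near 0 with long upper ranges.

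Smr2 and Bmpr1b marked mostly different members. Counting a gene as present at 2 or more UMIs, a choice made after the values were seen, Smr2 alone was present in 80 control and 37 Treg_Penk_KO members and Bmpr1b alone in 77 and 47. Only 5 and 3 members had both, while 440 and 233 had neither. Among members of at least 30000 UMIs, Smr2 alone was present in 66 of 243 and 29 of 119. Bmpr1b alone was present in 71 and 39 of them, and both in 5 and 3. With a further minimum of 1 per 10,000 UMIs, Smr2 alone was present in 30 members (4.98%, 3.39 to 7.04) and 11 members (3.44%, 1.73 to 6.07). Bmpr1b alone was then present in 12 and 8, and no member had both. At such low shares few members with both could be found in any case, so their absence does not show separate classes. The members with neither were shallow, at median depths of 12217 and 12925 UMIs against 71905 and 65157 UMIs for Smr2 alone and 110011 and 104023 UMIs for Bmpr1b alone.

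The class with Smr2 carried its own set of genes in both libraries. Aqp1, a water channel (chr6:55313068-55325540, plus strand), was at 377 and 536 CPM in Smr2 members, against 20.3 and 35.6 CPM in Bmpr1b members. Nptx2, a secreted pentraxin that clusters glutamate receptors, was at 465 and 597 CPM against 70.8 and 84.5 CPM. Chrna7 was at 541 and 654 CPM against 123 and 97.9 CPM, and Ptger3 at 318 and 323 CPM against 67.4 and 71.6 CPM. Both of these leading genes of all members were lower in the Bmpr1b class. Chst15, a sulfotransferase, Gna14, a G protein alpha subunit, Alkal2, a ligand of the ALK receptor, and Prkca, a protein kinase C, were also more than 4-fold higher in the Smr2 class in both libraries.

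The class with Bmpr1b was led by other genes. Kit, the stem cell factor receptor (chr5:75735576-75817404, plus strand), was at 322 and 319.9 CPM in Bmpr1b members and at 15.8 and 22.7 CPM in Smr2 members. Pou4f3, a POU-domain transcription factor, was at 115 and 112 CPM against 4.18 and 2.46 CPM. Chn2, a GTPase-activating protein for Rac, was at 111 and 152 CPM against 2.97 and 4.92 CPM. Cnih3, an auxiliary subunit of AMPA receptors, was at 57.5 and 57.9 CPM against 0.944 and 0.922 CPM. Cyp1b1, Atp2b4, Rasgrf2 and Ccdc141 followed the same order. Channels of pain and touch also differed in level between the classes, in either direction. P2rx3, the ATP-gated channel, was at 391.6 and 457 CPM in Bmpr1b members against 126 and 74.0 CPM, Scn11a (Nav1.9) at 165 and 189 CPM against 43.4 and 39.9 CPM, and Piezo2, the touch channel, at 283 and 326 CPM against 137 and 134 CPM. Other channels were higher in Smr2 members. Asic1, an acid-sensing channel, was at 253 and 309 CPM there against 81.3 and 53.7 CPM. Trpv1 was at 42.1 and 92.5 CPM against 19.9 and 29.4 CPM. Scn9a (Nav1.7) was similar in both classes, at 620 and 656 CPM in Smr2 members against 603 and 624 CPM. Calca itself was the higher in Smr2 members, at 1999 and 2520 CPM against 1131 and 1205 CPM.

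**Figure D3:**
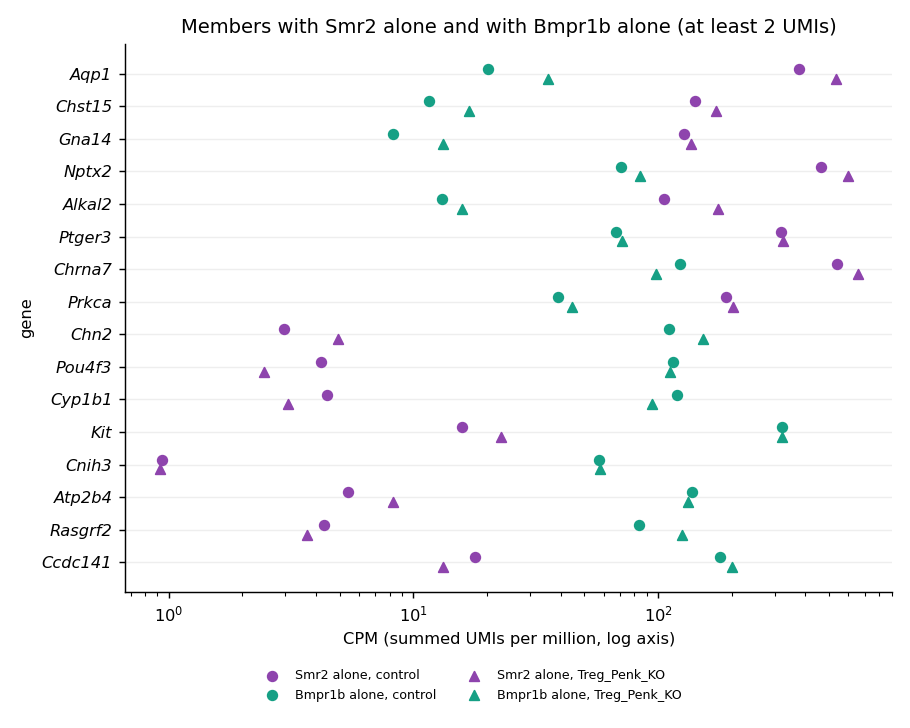
Levels of 16 genes (x axis, CPM on a log scale; y axis, genes) in members with Smr2 alone (purple) and with Bmpr1b alone (green), circles for control and triangles for Treg_Penk_KO. The upper 8 genes lie to the right in Smr2 members and the lower 8 in Bmpr1b members, and Kit is at 322 and 319.9 CPM in Bmpr1b members against 15.8 and 22.7 CPM.

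Deep members without either marker were common. Among members with at least 30000 UMIs, 101 of 243 control members (41.6%, 35.3 to 48.0) and 48 of 119 Treg_Penk_KO members (40.3%, 31.4 to 49.7) had fewer than 2 UMIs of each marker. Their median depths were 67833 and 50942 UMIs, against 86692 and 86141 UMIs for Smr2 alone and 112839 and 109424 UMIs for Bmpr1b alone. The part of depth in these shares was not tested. Ntrk3, the receptor for neurotrophin-3, was at 222 and 284 CPM in the deep members with neither. It was at 89.8 and 15.5 CPM in deep Smr2 members and at 59.5 and 67.2 CPM in deep Bmpr1b members. Tspan8, a tetraspanin, was at 112 and 104 CPM against at most 26.6 CPM in either class, and Cd34, a surface sialomucin, at 113 and 98.8 CPM against at most 37.4 CPM. Pvalb, a gene of the rule, and Prx, a gene of myelinating Schwann cells, were also higher there. Prx was at 93.3 and 131 CPM against at most 46.8 CPM. Apoe, a gene of satellite glia, was at 3079 and 2179 CPM in these members against at most 1867 CPM in either class, and the part of glial RNA in the result was not tested. Genes that separated the classes lay between them in these members. Aqp1 was at 101 and 156 CPM, against 375 and 537 CPM in deep Smr2 members and 20.0 and 36.1 CPM in deep Bmpr1b members. Kit was at 97.8 and 79.8 CPM, against 16.3 and 21.7 CPM in deep Smr2 members and 321 and 318 CPM in deep Bmpr1b members. No new name is given to these barcodes.

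Apoe, an apolipoprotein that satellite glia and other non-neuronal cells express strongly, had a level split among members. High Apoe, at least 10 per 10,000 UMIs, was found in 310 of 602 control members (51.5%, 47.4 to 55.6) and in 120 of 320 Treg_Penk_KO members (37.5%, 32.2 to 43.1). The medians were 11.1 and 2.24 per 10,000 UMIs. Between 5 and 10 per 10,000, just below the limit, lay 39 control and 11 Treg_Penk_KO members, and between 10 and 20, just above it, 59 and 23. In the control 32.4% of members were below 2 and in the Treg_Penk_KO library 48.4%.

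The gap in high Apoe between the libraries was wider in members than in the comparison gates. In the comparison gates the shares were 13.1% and 9.68% (low-Nefh peptidergic), 37.7% and 36.6% (proprioceptors) and 43.5% and 39.1% (other myelinated). Among members of 5000 to 10000 UMIs the shares were 63.4% and 36.4%, and from 30000 UMIs upward 40.7% (34.5 to 47.2) and 34.5% (26.0 to 43.7). In droplets of both libraries 69.8% (63.9 to 75.3) of control members had high Apoe, and 45.7% (37.3 to 54.3) of Treg_Penk_KO members did. In droplets of 1 library the shares were 37.4% (32.2 to 42.7) and 31.1% (24.4 to 38.4), so the intervals overlapped there. The other barcodes of at least 5000 UMIs also had more high Apoe in droplets of both libraries, at 51.2% and 47.1%, than in droplets of 1 library, at 31.6% and 25.7%.

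Some markers of other cells were higher in members with high Apoe. Fabp7, a fatty acid binding protein of satellite glia, was at 491 and 594 CPM in members with high Apoe and at 19.5 and 16.1 CPM in the others. Macrophage markers summed to 97.3 and 118 CPM with high Apoe and to 14.4 and 12.5 CPM without. Markers of A-delta touch neurons, another neuron type, summed to 152 and 178 CPM with high Apoe and to 14.0 and 16.7 CPM without. Endothelial markers summed to 95.3 and 137 CPM with high Apoe and to 7.06 and 8.42 CPM without. Fibroblast markers summed to 388 and 574 CPM with and to 90.8 and 105 CPM without. Lists of myelinating Schwann cells and proprioceptors were also higher with high Apoe in both libraries. So were 3 further neuron lists. Markers of unmyelinated peptidergic neurons summed to 165 and 348 CPM with and to 139 and 201 CPM without. Those of C-fibre touch neurons summed to 40.6 and 32.5 CPM with and to 17.7 and 16.5 CPM without. A-beta touch neuron markers summed to 233 and 262 CPM with and to 190 and 139 CPM without. Lists of nonpeptidergic, cold receptor and pruriceptor neurons differed less or in the opposite order in the control. In the control and Treg_Penk_KO libraries nonpeptidergic markers summed to 267 and 355 CPM with high Apoe and to 327 and 334 CPM without. Cold receptor neuron markers summed to 26.4 and 38.004 CPM with and to 31.2 and 34.5 CPM without, and pruriceptor markers to 32.5 and 55.2 CPM with and to 31.3 and 28.2 CPM without. T cell markers were close to absent, with 3 of 4 markers detected in each library. They summed to 0.983 CPM in control members, with Foxp3 at 0 UMIs, and to 0.564 CPM in Treg_Penk_KO members, with Cd3e at 0.

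The abundance of the neurons was counted for all members and for members with and without high Apoe. Members made up 10.2% (9.43 to 11.0) of the 5907 control barcodes with at least 5000 UMIs and 7.80% (6.998 to 8.66) of the 4102 Treg_Penk_KO barcodes. Members without high Apoe made up 4.94% (4.40 to 5.53) and 4.88% (4.24 to 5.58), and members with high Apoe 5.25% (4.69 to 5.85) and 2.93% (2.43 to 3.49). In droplets of 1 library the shares of all members were 9.35% (8.42 to 10.3) and 8.25% (7.13 to 9.49), so the intervals overlapped. In droplets of both libraries they were 11.5% (10.3 to 12.9) and 7.29% (6.17 to 8.54), without overlap. The libraries thus differed in the share of members with high Apoe. The parts of glial RNA and of droplets of both libraries in the difference in abundance were not tested.

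**Figure D4:**
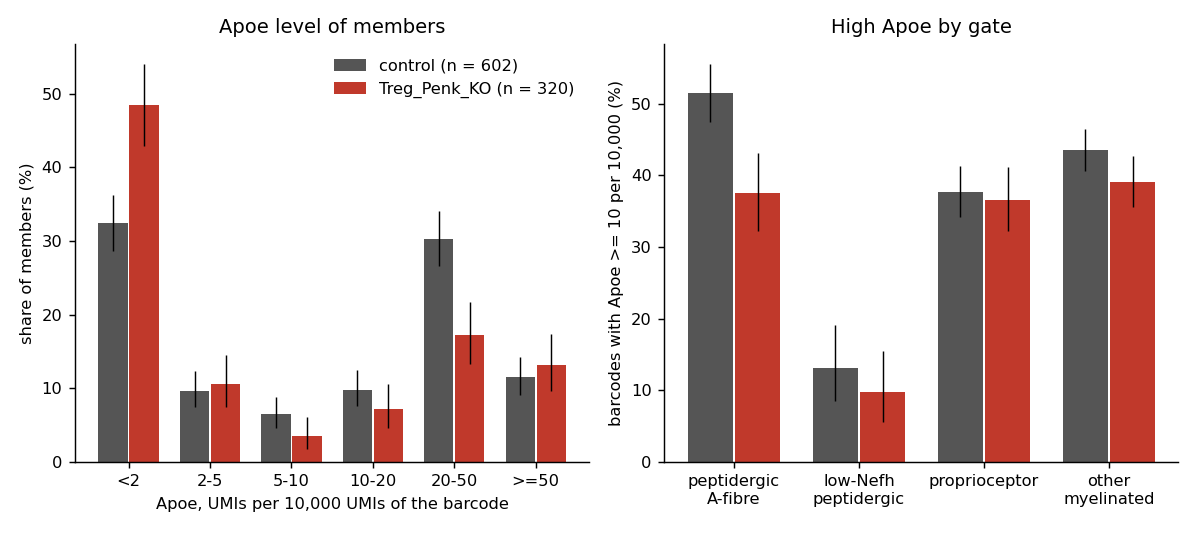
Apoe in members by library. Left, the share of members (y axis, %) in each range of Apoe (x axis, UMIs per 10,000 UMIs of the barcode); right, the share of barcodes with at least 10 Apoe UMIs per 10,000 in members and in the comparison gates, with bars for each library and lines for exact 95% binomial intervals. The gap between libraries is widest in members, at 51.5% and 37.5%, and the low-Nefh peptidergic gate has the lowest shares, at 13.1% and 9.68%.

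Penk, the gene targeted in regulatory T cells (chr4:4132722-4141856, minus strand), was near 0 in these neurons. The control had 11 Penk UMIs in 8 members (0.386 CPM, 0.193 to 0.691), and 10 of the 11 lay in members with high Apoe. The Treg_Penk_KO library had 0 UMIs, which allows a level of up to 0.211 CPM at 3 counts over all members. The interval of the control level reached below that limit. Without thinning, Penk had a UMI in 4.04% of other myelinated, 2.05% of proprioceptor and 0.571% of low-Nefh barcodes of the control. In the Treg_Penk_KO library the share was 0% in each of these gates, and the cause was not tested. So few counts in members, of a gene targeted in another cell type, do not check the labels.

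Between the libraries the sums over members were close. Of 7556 eligible genes, 90 (1.19%) were at least 25% higher in Treg_Penk_KO members and 83 (1.1%) at least 20% lower, which is the same size step, or 2.29% in either direction, and the median ratio was 0.998. A gene at 20 CPM in only 1 library was eligible through the library where it was higher, and this applied to 27 of the 90 and 25 of the 83. Among the genes named below these included Nav2, Cartpt, Iigp1, Prokr2, Parp14 and Osmr, through the Treg_Penk_KO library. Egr1, Dusp6, Trf and Oprd1 were among those eligible through the control. With 1 library per group, these counts describe the libraries and not the genotypes. The named genes below are the 10 with the highest and the 10 with the lowest ratios that kept their direction under 7 other ways of calculating them.

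Among the genes higher in Treg_Penk_KO members were interferon-induced genes. Rsad2, the antiviral protein viperin, was at 20.4 CPM in control and 40.5 CPM in Treg_Penk_KO members, a ratio of 1.99 (1.77 to 2.24). Ifit3b was at 20.9 and 37.8 CPM (ratio 1.81), Iigp1, an interferon-induced GTPase, at 15.1 and 27.5 CPM (1.83), Rnf213, a ubiquitin ligase with antimicrobial activity, at 36.2 and 65.1 CPM (1.80), and Parp14 at 13.4 and 22.2 CPM (1.66). After thinning to 5000 UMIs the Parp14 ratio was 1.12, short of the size step. A single Treg_Penk_KO member held 19.8% of its library's Rsad2 UMIs, and the ratio was 1.40 when the thresholds of Calca, Nefh and Scn10a were doubled. Over all other barcodes of at least 5000 UMIs the Rsad2 ratio was 1.39 (1.34 to 1.45) and that of Parp14 1.07 (1.02 to 1.12).

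The list of 38 interferon-stimulated genes gave the same picture in part. Of these, 36 were measured and 30 eligible, and 7 were higher in Treg_Penk_KO members by the size step (Ifih1, Gbp2, Isg15, Rsad2, Rtp4, Ifit3 and Ifit3b), none lower, against 1.19% of all eligible genes higher. Isg15, a ubiquitin-like protein, was at 33.7 and 53.1 CPM, and Ifit3, which binds foreign RNA together with related proteins, at 82.6 and 116 CPM. The genes of the list with the highest levels differed less. Oasl2 was at 467 and 529.6 CPM, Ifit1 at 267 and 306 CPM, Bst2, a tethering protein of virus release, at 171 and 193 CPM, and the RNA sensor Ddx58 at 149 and 162 CPM. The median log2 ratio of the list was 0.16, against -0.003 for all eligible genes, and it was 0.047 at doubled thresholds. In other myelinated neurons Ifit3 was at 68.4 and 45.2 CPM, the opposite order, and in the low-Nefh gate at 59.6 and 140 CPM.

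Neuropeptide and heat-channel genes of unmyelinated peptidergic neurons were also higher in Treg_Penk_KO members. Tac1 was at 101 CPM in control and 182 CPM in Treg_Penk_KO members, a ratio of 1.79 (1.70 to 1.89). Trpv1 was at 32.9 and 57.1 CPM (1.74, 1.58 to 1.91), and Cartpt, the precursor of CART peptides, at 16.6 and 30.6 CPM (1.85, 1.62 to 2.11). The share of members with a Tac1 UMI went the other way, at 53.0% and 44.7%. A few members carried much of the Tac1. At 5 or more per 10,000 UMIs were 43 of 602 control members (7.14%, 5.22 to 9.50) and 37 of 320 Treg_Penk_KO members (11.6%, 8.27 to 15.6). Of all Tac1 UMIs of members, these held 59.5% for the control and 74.2% for the other library, and Trpv1 was at 2 or more per 10,000 in 18 of the 43 and 23 of the 37.

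Without these members, an alternative chosen after seeing the data, the log2 ratio was 0.27 for Tac1 (0.84 with them), 0.33 for Trpv1 (0.80) and 0.37 for Cartpt (0.89). Leaving out members by Tac1 lowers Tac1 by construction, and Trpv1 and Cartpt, at ratios of 1.26 and 1.29, were still past the size step. In droplets of 1 library the ratio of Tac1 was 1.20 and that of Trpv1 1.15, while the log2 ratio of Cartpt was 1.04. Both Tac1 and Trpv1 were thus short of the size step there, as was Cartpt at doubled thresholds, with a ratio of 1.24. The 5 markers of unmyelinated peptidergic neurons (Tac1, Trpv1, Adcyap1, Sstr2 and Adra2a) summed to 150.4 CPM in control and 256 CPM in Treg_Penk_KO members, and their part in these ratios beyond the genes named was not tested. Other neuropeptides differed little in the same members: Nmb, neuromedin B, was at 489.6 and 519 CPM and Calcb, beta-CGRP, at 195 and 209.8 CPM. Of 19 neuropeptide genes, 5 were eligible, 2 of these were higher by the size step, Tac1 and Cartpt, and none was lower. Over all eligible genes 1.19% were higher, and Tac1 and Cartpt were among the extremes named above.

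Nav2, a neuron navigator of axon outgrowth (chr7:48558464-49259838, plus strand), had the highest ratio. It was at 13.2 CPM in control and 30.2 CPM in Treg_Penk_KO members (2.29, 1.99 to 2.64). Nav2 was also higher in the Treg_Penk_KO library in every comparison gate, with 18.1 and 29.7 CPM in proprioceptors, and over all other barcodes of that depth the ratio was 1.75 (1.67 to 1.83). Prokr2, a prokineticin receptor, was at 15.4 and 27.1 CPM (1.76, 1.53 to 2.02), and at most 1.46 CPM in any comparison gate of either library. Its ratio lay between 1.71 and 2.32 over the alternatives. That of Nav2 was 3.77 without members of high Apoe.

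Genes lower in Treg_Penk_KO members included activity-induced genes. Egr1, an immediate early transcription factor, was at 29.2 CPM in control and 13.4 CPM in Treg_Penk_KO members, a ratio of 0.458 (0.389 to 0.537). Dusp6, a phosphatase of MAP kinases, was at 28.3 and 17.9 CPM (0.633), and the related Dusp1 at 45.1 and 30.5 CPM (0.676). Of 28 immediate early genes, 12 were eligible, 4 were lower by the size step (Junb, Dusp6, Dusp1 and Egr1) and none higher, with a median log2 ratio of -0.19. Of all eligible genes 1.1% were lower by that step, and their median was -0.003. Egr1 and Dusp6 reached 20 CPM only in the control, where they were the higher, and were eligible through it. Dusp6 was at a ratio of 0.838 after thinning to 5000 UMIs and Dusp1 at 0.805 at doubled thresholds, both short of the size step. Fos, the best known of them, was below the limit at 5.86 and 4.16 CPM. The late response genes Vgf, Bdnf and Nptx2 had levels of 507 and 494, 241 and 234, and 238 and 247 CPM. Egr1 was lower in the Treg_Penk_KO library in each comparison gate as well, for instance 36.4 and 19.5 CPM in proprioceptors, and over all other deep barcodes its ratio was 0.592 (0.566 to 0.620).

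Several other low ratios were shared with the rest of the ganglion. Cc2d1b, a membrane-trafficking protein, was at 51.3 and 27.2 CPM in members (0.53) and had a ratio of 0.55 over all other barcodes of at least 5000 UMIs. Tmem267 was at 49.3 and 31.6 CPM (0.64 in members, 0.56 in the others) and Rtl8b at 120.4 and 73.8 CPM (0.61 and 0.60). The Rtl8b ratio in members was 0.820 after thinning, short of the size step. In the same thinning that of Rarres1 was 0.409. Rarres1, a retinoid-responsive gene, differed from these. It was at 32.6 and 21.1 CPM in members (0.647, 0.566 to 0.738) but had a ratio of 1.08 (1.06 to 1.10) over the other barcodes. Xpa, Trf and Tpd52l1 were the remaining named genes, at ratios from 0.67 to 0.71.

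**Figure D5:**
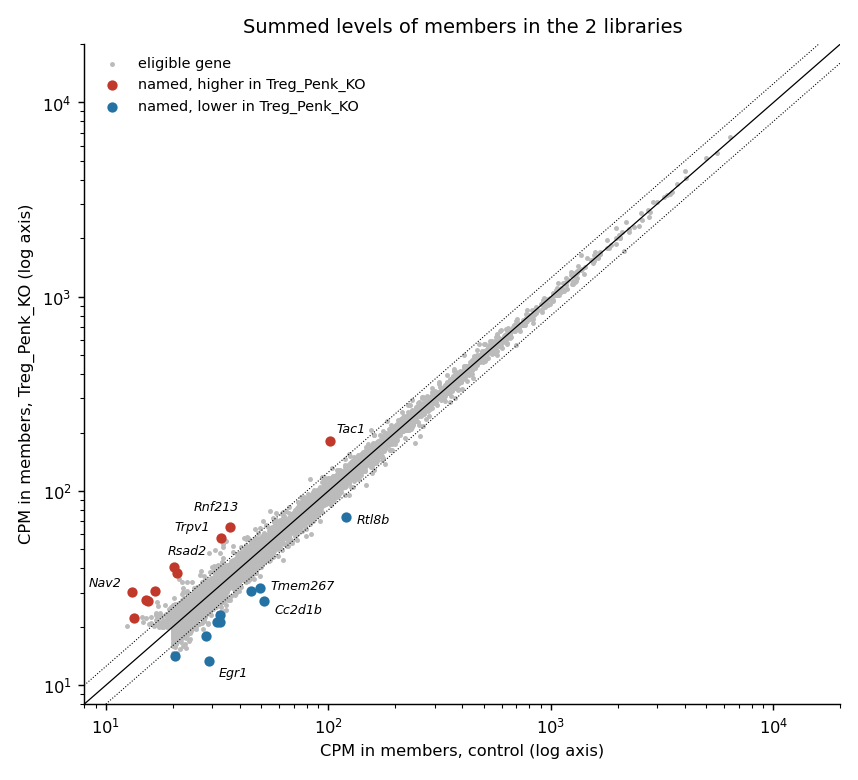
Summed levels of 7556 eligible genes in members (x axis, control, and y axis, Treg_Penk_KO, both CPM on log scales), with the line of equality and dotted lines at the size step. Red points are the 10 named genes higher and blue points the 10 lower in the Treg_Penk_KO library. Most genes lie between the dotted lines, and Tac1, at 101 and 182 CPM, is the most abundant of the red points.

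A few genes had ratios in members that stood apart from those of the other barcodes of at least 5000 UMIs. Lxn, latexin, a carboxypeptidase inhibitor, was at 258 and 191 CPM in members (0.742, 0.709 to 0.775), whereas its ratio elsewhere was 1.22 (1.21 to 1.23). Cnr1, the CB1 cannabinoid receptor, was at 26.7 and 38.9 CPM (1.46, 1.30 to 1.63), with 0.905 (0.875 to 0.935) elsewhere. Spp1, Whrn and Igfbp2 were also higher in Treg_Penk_KO members, with ratios of 1.48, 1.44 and 1.64 against 0.792, 0.788 and 1.01 elsewhere. Comp, Arhgap36 and Cd34 were lower, with ratios of 0.728, 0.713 and 0.707 against 1.11, 1.08 and 1.05. The directions of Whrn, Comp and Cd34 each reversed under 1 alternative.

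Ion channels set the excitability of these neurons. None of the 10 eligible sodium channel genes of 12 passed the size step, which 2.29% of all eligible genes did in either direction. Scn10a, a gene of the rule, was at 1306 and 1362 CPM, Scn9a (Nav1.7) at 557 and 579 CPM, and the beta subunit Scn4b at 728 and 663 CPM. Members resembled myelinated neurons in part of this list. Scn1a, Scn8a, Scn2b and Scn4b were at least 2-fold higher than in the low-Nefh gate in both libraries, for Scn8a (Nav1.6) 238 and 223 CPM against 20.6 and 21.96 CPM. Scn11a, the persistent channel of unmyelinated fibres, was lower, at 133 and 142 CPM against 583 and 647 CPM.

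Potassium and calcium channels were counted in the same way. Of 26 potassium channel genes, 22 were eligible, and Kcnh7 (158 and 124 CPM) and Kcnq3 (49.6 and 36.4 CPM), a subunit of the M-current, were lower by the size step in Treg_Penk_KO members, against 1.1% of all eligible genes. The axonal channels Kcna1 and Kcna2 were at 349 and 321 CPM for Kcna1 and at 350.4 and 344 CPM for Kcna2, against at most 19.3 and 65.4 CPM in the low-Nefh gate. None of 10 eligible calcium channel genes of 15 passed the size step. Cacna2d1, the subunit bound by gabapentin, was at 277 CPM in both libraries, and Cacna1b (N type) at 184 and 182 CPM.

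Among transduction channels, Asic3, the acid-sensing channel of sensory neurons, was at 380.5 and 358 CPM, against at most 157 CPM in any comparison gate. Piezo2 was at 214 and 228 CPM, P2rx3 at 275 and 302 CPM and Hcn2, a pacemaker channel, at 267 and 260 CPM. Of 25 transduction genes 22 were measured and 15 eligible, and Trpv1 was the only one past the size step, against 2.29% of all eligible genes in either direction.

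Among growth factor receptors, Ngfr, the low-affinity neurotrophin receptor, was at 1781 and 1959 CPM. Of 12 eligible receptor genes of 14, Gfra1 was lower by the size step, at 79.5 and 63.5 CPM, beside a share of 1.1% over all eligible genes. None of 19 eligible transcription factors of 32 passed the step. Isl2 was at 478 and 475 CPM, Etv5 at 434.5 and 429 CPM and Prdm12, a factor needed for nociceptor development, at 392.5 and 414 CPM, against at most 21.3 CPM for Prdm12 in proprioceptors. The filaments Nefl and Prph were at 4954 and 5195 CPM for Nefl, and at 1860 and 1839 CPM for Prph.

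Opioid signalling genes, which the peptide of the targeted gene acts through, differed little between the libraries. Oprm1 (chr10:6708506-6988198, plus strand) was at 453 CPM in control and 494 CPM in Treg_Penk_KO members (ratio 1.09, 1.06 to 1.12), against 683 and 669 CPM in the low-Nefh gate and 14.6 and 14.7 CPM in proprioceptors. Oprd1, the delta opioid receptor, was at 22.7 CPM (21.0 to 24.5) and 16.3 CPM (14.3 to 18.6), lower in the Treg_Penk_KO library by a ratio of 0.72. Unlike Oprm1 it was highest in members, with at most 13.2 CPM in the comparison gates and 0.81 and 0.88 CPM in the low-Nefh gate. The partner genes Gnao1, Arrb1 and Rgs4, a G protein, an arrestin and a regulator of G protein signalling, were at 708 and 734, 535 and 537, and 475 and 568 CPM. Of 18 genes in the list 11 were eligible, and Oprd1 was the only one past the size step. Over all eligible genes 2.29% passed it in either direction.

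Receptors for other modulators and for cytokines were also listed. Gabbr1 and Gabbr2, which form the GABA-B receptor, were at 329.8 and 332 CPM for Gabbr1 and at 160.4 and 155 CPM for Gabbr2, and Htr1b, a serotonin receptor, at 130 and 149 CPM. Of 12 eligible genes of 24, Cnr1 was higher and Gabra5, a GABA-A receptor subunit, was lower, at 59.5 and 46.1 CPM. Of all eligible genes 1.19% were higher and 1.1% lower. Osmr, the oncostatin M receptor, was the only one of 10 eligible cytokine receptor genes of 25 past the size step, at 17.5 and 23.6 CPM. The share over all eligible genes was 2.29% in either direction. Lifr and Il6st, which belong to the same receptor family, were at 599 and 671 CPM for Lifr and at 532 and 593 CPM for Il6st.

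The last neuronal lists held transmitter release, glutamate and injury genes. Slc17a6, the vesicular glutamate transporter VGLUT2, was at 381 and 401 CPM, and Slc17a7 (VGLUT1) at 92.7 and 93.1 CPM, against 1345 CPM in proprioceptors of both libraries. None of 10 eligible glutamate genes of 16 and none of 17 eligible release genes of 18 passed the size step. Over all eligible genes the share was 2.29% in either direction. Snap25, a protein of vesicle fusion, was at 1330.3 and 1439 CPM. Among 11 eligible injury and regeneration genes of 24, Smad1 was lower, at 47.5 and 37.6 CPM, against 1.1% of all eligible genes. The growth cone gene Gap43 was at 1255 and 1322 CPM. Atf3, the injury-induced factor, was below the limit at 13.3 and 7.89 CPM.

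Glial lists within the members did not share a direction between the libraries. Of 14 eligible satellite glia genes of 16, Kcnj10, the glial potassium channel, was lower by the size step, at 42.8 and 34.1 CPM. Of all eligible genes 1.1% were lower. The median log2 ratio of the list was -0.17. Apoe was at 2138 and 1725 CPM and Cst3, cystatin C, at 695 and 566 CPM. Without members of high Apoe the list's median was -0.022. None of 8 eligible myelin genes of 13 passed the size step, which 2.29% of all eligible genes did in either direction. Mbp, myelin basic protein, was at 189 and 209 CPM, and the median log2 ratio of the myelin genes was 0.10. In members without high Apoe it was 0.41.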

How the data were processed

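The deposited values were raw UMI counts per gene and barcode (19059 genes), which the authors did not normalize. The labels' protocols name Cell Ranger 7.0 and the GRCm39 build, and the file headers name version 8.0.1. The submitters' processing notes also list Seurat without saying what it was used for. The design text speaks of nuclei and the sample labels of fixed cells. Paraformaldehyde at 4% fixed the tissue.

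Groups follow the genotype labels. Members were found by the rule in the report on the counts as deposited, with no filter for doublets. UMIs were summed over members and divided by their total to give CPM. CPM have exact Poisson, ratios exact conditional binomial and shares Clopper-Pearson 95% intervals, which cover counting error only and not the spread between animals. The size step was a level 25% higher or, inversely, 20% lower. Levels depend on each gene's probes, so no levels were compared between genes. Counting and intervals used scipy 1.17.1, pandas 2.3.3 and numpy 2.4.6 in Python 3.11.15, figures used matplotlib 3.10.9, and the ratios were tested on simulated data. Gene positions are from GENCODE on GRCm39.

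The members and the 18 gene lists were chosen with earlier results of these data known. Named genes were up to 4 per list by highest mean CPM, the 15 leading genes with at least 50 CPM in members, 10 per direction between libraries, and 5 per direction with the largest gap to the other deep barcodes at 500 or more UMIs. Genes of a list past the step, Fos, Atf3, the levels of channels in the Smr2 and Bmpr1b classes and the markers of the label check were named in addition. Alternatives changed the depth minimum, the thresholds, the thinning, the weighting, the scaling and the droplets used. Some genes of the lists are not reported here.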

Additional observations from a re-analysis of the deposited data

How the results depend on the processing

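No paired analysis was possible because each group was 1 library. For control and Treg_Penk_KO in turn, the share of members was 5.23% and 4.75% at doubled thresholds, 4.94% and 4.88% without high Apoe, and 3.83% and 2.65% of all barcodes, and in the control 9.35% in droplets of 1 library. The share with high Apoe was 42.1% and 24.1% at doubled thresholds, 37.4% and 31.1% in droplets of 1 library, and 41.7% and 30.3% at 20 per 10,000. In the control it was 46.3% at 10000 UMIs and 58.0% at 5 per 10,000. Smr2 alone was 1.22% and 0.595% and Bmpr1b alone 0.174% and 0% when the rule was applied to barcodes thinned to 5000 UMIs. Smr2 alone was 13.3% and 11.6% and Bmpr1b alone 12.8% and 14.7% at 2 UMIs only, and in the control Smr2 alone was 7.44% at doubled thresholds and 7.88% without high Apoe.

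Genes higher and lower by the size step, 90 and 83 as reported, numbered 217 and 209 with each barcode weighted equally, 403 and 514 after thinning, 301 and 332 with genes from 5 CPM, 1501 and 1403 without a filter, and 21 and 6 at a step of 1.5. In droplets of 1 library 142 were higher, and 129 were lower without high Apoe and 158 at doubled thresholds. Thinning and wider filters add genes with few counts by construction, and the cause of the other shifts was not tested.

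Of 144 recomputed list medians (log2), 132 moved by less than 0.1. The others were, at doubled thresholds, 0.10 for neuropeptides, 0.064 for transduction channels, 0.047 for interferon-stimulated genes and -0.037 for myelin genes. With equal weights they were -0.028 for modulatory receptors and 0.040 for satellite glia genes, and after thinning 0.10 for cytokine receptors and -0.049 for satellite glia genes. Without high Apoe and in droplets of 1 library they were -0.022 and -0.020 for satellite glia genes and 0.41 and 0.47 for myelin genes. Of 944 gene values 4 reversed: Whrn (log2 ratio -0.31) and Tmem68 (-0.19) after thinning, Comp (0.035) without high Apoe and Cd34 (0.14) with equal weights. Depth limits the counts of Smr2 and Bmpr1b, and members with neither had median depths of 12217 and 12925 UMIs.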

Other observations

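Of the 7556 eligible genes, 2759 kept 1 direction between the libraries under all 7 planned settings, 1299 higher and 1460 lower in Treg_Penk_KO members. Of the extreme ratios, Mrgprd and Ighm turned under a setting and were not named with the others. Mrgprd, a gene of the rule, was at 15.4 and 26.7 CPM, with 26.1% of its Treg_Penk_KO UMIs in 1 barcode. Ighm, the heavy chain of immunoglobulin M, was at 23.0 CPM in control and 15.6 CPM in Treg_Penk_KO members.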
